A study of Mus musculus with 4 samples.

Results

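Alveolar macrophages, the resident phagocytes of the air spaces, were followed through 8 genes that mark their identity in the mouse: Siglecf, Krt79, Fabp1, Ear1, Ear2, Plet1, Abcg1 and Pparg. Members were taken as array features annotated with exactly 1 gene symbol, the feature with the highest mean being used for each gene. This gave values for 6 of the 8, out of 30142 genes in all; no feature of that kind carried the symbol Ear1 or Ear2, and both are not analysed here. Siglecf was listed under the older symbol Siglec5 and was matched by its Entrez ID. The 8 genes were put together with earlier results of these arrays in view, to ask which of them do not follow a smoke-associated rise of macrophage genes. They were thus chosen by their smoke differences at 2 and 4 weeks, which are given as a description and carry no test.

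The RNA came from whole lungs of male mice of the inbred strain C57BL, which breathed clean air or mainstream cigarette smoke for 1 h per day on 5 days per week, starting at 10 weeks of age. Animals were 12 weeks old after 2 weeks of exposure and 14 weeks old after 4. Lungs of a group were mixed into 1 pool and measured on 1 array, made from 5 mice for each clean air pool, from 5 for 2 weeks of smoke and from 4 for 4 weeks of smoke. No group had a replicate pool, so a difference between pools has no replicate check, and with 4 arrays precision is limited throughout. Values are signals normalised by the robust multi-array average (RMA), given by the authors on a linear scale; folds and log2 differences assume that the scale was made with base 2, which the values do not settle: 541 to 581 features of each array lay above 65535, the top of the usual scanner range, and the highest value was 845602. With base e the same values would make Plet1 1.81-fold higher at each duration, Fabp1 1.54-fold lower at 4 weeks and just past 1.5-fold lower at 2 weeks, and Abcg1 1.52-fold higher at 4 weeks; the adjusted p-values do not depend on the base. The median signal lay between 58.8 and 61.7 on the 4 arrays. The lung marker Sftpc, surfactant protein C of alveolar type 2 cells, had a signal of 473797 to 512830. In whole-lung RNA, fewer cells of a type and less RNA per cell cannot be told apart.

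Alveolar macrophages arise from fetal monocytes and depend on GM-CSF, which induces the nuclear receptor PPAR gamma in them. PPAR gamma, encoded by Pparg, drives their programme of lipid handling, by which they clear surfactant from the air spaces. Siglecf encodes a sialic acid binding lectin used to gate these cells in flow cytometry, and it is also found on eosinophils. Abcg1 encodes an exporter of cholesterol, Fabp1 a fatty acid binding protein best known from liver and gut, Krt79 a type II keratin, and Plet1 a membrane-anchored surface protein. Ear1 and Ear2 encode ribonucleases named after eosinophils. Macrophages that enter the lung from blood monocytes during inflammation acquire such identity genes only gradually.

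Promoters of 7 of the 8 genes were found in a RefSeq table of build GRCm38.p6. Those of the member with the largest higher difference (Plet1), the member with the largest lower difference (Fabp1) and the member whose smoke differences had opposite signs (Siglecf) are shown as the 250 bases before the annotated start. Capitals mark matches, on either strand, to the PU.1 core GAGGAA, the PPAR-RXR direct repeat (AGGNCA, 1 base of any kind and AGGNCA again), the C/EBP motif TTGCNNAA or the AP-1 motif TGANTCA, where N is any base; the matches shown do not overlap each other.
Plet1: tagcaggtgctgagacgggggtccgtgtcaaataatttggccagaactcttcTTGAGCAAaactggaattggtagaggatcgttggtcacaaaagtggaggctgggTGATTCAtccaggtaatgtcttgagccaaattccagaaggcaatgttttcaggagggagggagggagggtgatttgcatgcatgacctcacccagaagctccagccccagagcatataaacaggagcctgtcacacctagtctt
Fabp1: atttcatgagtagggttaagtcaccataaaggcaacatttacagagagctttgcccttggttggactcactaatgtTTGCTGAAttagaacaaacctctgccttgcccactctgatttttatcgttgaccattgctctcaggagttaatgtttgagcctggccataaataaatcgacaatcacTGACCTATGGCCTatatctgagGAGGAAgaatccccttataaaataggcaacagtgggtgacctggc
Siglecf: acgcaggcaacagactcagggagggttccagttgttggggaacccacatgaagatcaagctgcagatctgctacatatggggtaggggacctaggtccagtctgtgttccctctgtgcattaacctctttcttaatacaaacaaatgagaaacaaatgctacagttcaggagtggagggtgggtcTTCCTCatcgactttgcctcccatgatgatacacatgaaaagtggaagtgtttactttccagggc
The Plet1 window (chr9:50494275-50494524, plus strand) held a C/EBP match 198 bases and an AP-1 match 144 bases before the start. The Fabp1 window (chr6:71199629-71199878, plus strand) held a C/EBP match at 174, the direct repeat at 67, on the minus strand, and a PU.1 match at 45 bases before the start. In the Siglecf window (chr7:43351091-43351340, plus strand) a PU.1 match on the minus strand lay 65 bases before the start. Among 32851 mouse promoters of this length, 23.3% held the PU.1 core, 9.56% the C/EBP motif, 6.75% the AP-1 motif and 0.338% the direct repeat. Fabp1 was the only one of the 7 genes with the direct repeat in a window; none of the 3 annotated Pparg windows held it. A match is a string of letters and was not tested as a binding site. The windows of Ear1 and Ear2 were alike at 246 of 248 bases (99.2%); neither gene has a value here.

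The macrophage rise the members were set beside was described with 18 genes expressed by macrophages in general, 17 of them measured and above an expression floor (a signal of 56.3, the 40th percentile of all genes). All 17 differences were above 0 at both durations, from 0.02 to 2.18 on the log2 scale at 2 weeks and from 0.15 to 2.37 at 4 weeks. Their median was 0.56 at 2 weeks and 0.89 at 4 weeks, or 1.47-fold and 1.85-fold, against 0.01 and -0.02 over all 18084 genes above the floor. With limma, smoke and duration were fitted over all 4 pools and all genes, with calls at a Benjamini-Hochberg adjusted p of at most 0.05. By this rule 8 of the 17 rose, none fell and 9 did not pass. Over all genes 1.15% rose and 0.315% fell. Like the members, this list and those that follow were chosen with earlier results of these data known. Their counts and medians are therefore a description and no independent support for a rise. Cd68, a lysosomal glycoprotein of macrophages, rose by 2.28 ± 0.107 (SE, adjusted p = 0.00113). The scavenger receptor Msr1 rose by 1.70 ± 0.124 (adjusted p = 0.00318) and the Fc receptor chain Fcer1g by 1.32 ± 0.178 (adjusted p = 0.0274). The clean air pools differed 2.72-fold in Fcer1g, more than its smoke effect, and 1.68-fold in Cd68, both being higher at 4 weeks; the Fcer1g signal was 546 and 1482 in the control pools and 1764 and 2863 in the smoke pools at 2 and 4 weeks. These calls depended on scaling: after cyclic loess 4 of the 8 still passed, among them Cd68 and Msr1 but not Fcer1g (adjusted p = 0.0885), and after median centring 1 gene of this list passed. They also depended on the model and on the genes tested. Without the duration term 0 genes of the list passed, and with protein-coding genes alone 13 rose. With a floor at the 50th percentile, or with a variance trend in eBayes, 11 rose. The adjusted p-values here and below may be too small, since simulated data of this design gave more false calls than the limit allows. With 1 pool left out the duration term could not be kept, so the part of a single pool in these calls cannot be told apart from that of the model; 0 genes of this list passed in such fits, and 0 to 3 rose or fell in each of the macrophage, development and PPAR gamma lists that follow.

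Against this rise the 6 identity genes divided. Plet1, Abcg1 and Pparg were higher in both smoke pools than in their controls, Krt79 and Fabp1 were lower in both, and Siglecf was slightly lower at 2 weeks and slightly higher at 4. At 2 weeks 1 member was at least 1.5-fold higher (1.82% of all genes) and 1 lower (1.22%), where 3.04% of all genes differed so either way. At 4 weeks 2 members were higher (2.53%) and 1 lower (1.5%), against 4.04% either way. At least 1.5-fold differences in the same direction at both durations were seen in 1 member upwards, Plet1, and in 1 downwards, Fabp1; over all genes 1.13% were higher, 0.337% lower and 1.47% either by this rule. Both smoke pools were above both control pools in 3 members (15.7% of all genes) and below both in 2 (16.8%). The members had a median smoke difference of 0.12 at 2 weeks and 0.26 at 4 weeks. Only Plet1 exceeded the median of the general macrophage genes, at both durations, and Siglecf, Krt79 and Fabp1 lay below the lowest of the 17 at both durations. The shares over all genes include non-coding genes, whereas the 6 members are protein-coding. Of 12583 protein-coding genes above the floor, 279 were higher and 71 lower at 2 weeks, and 293 and 209 at 4 weeks. Since the members were chosen for these differences, nothing is read from these counts.

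**Figure D1:**
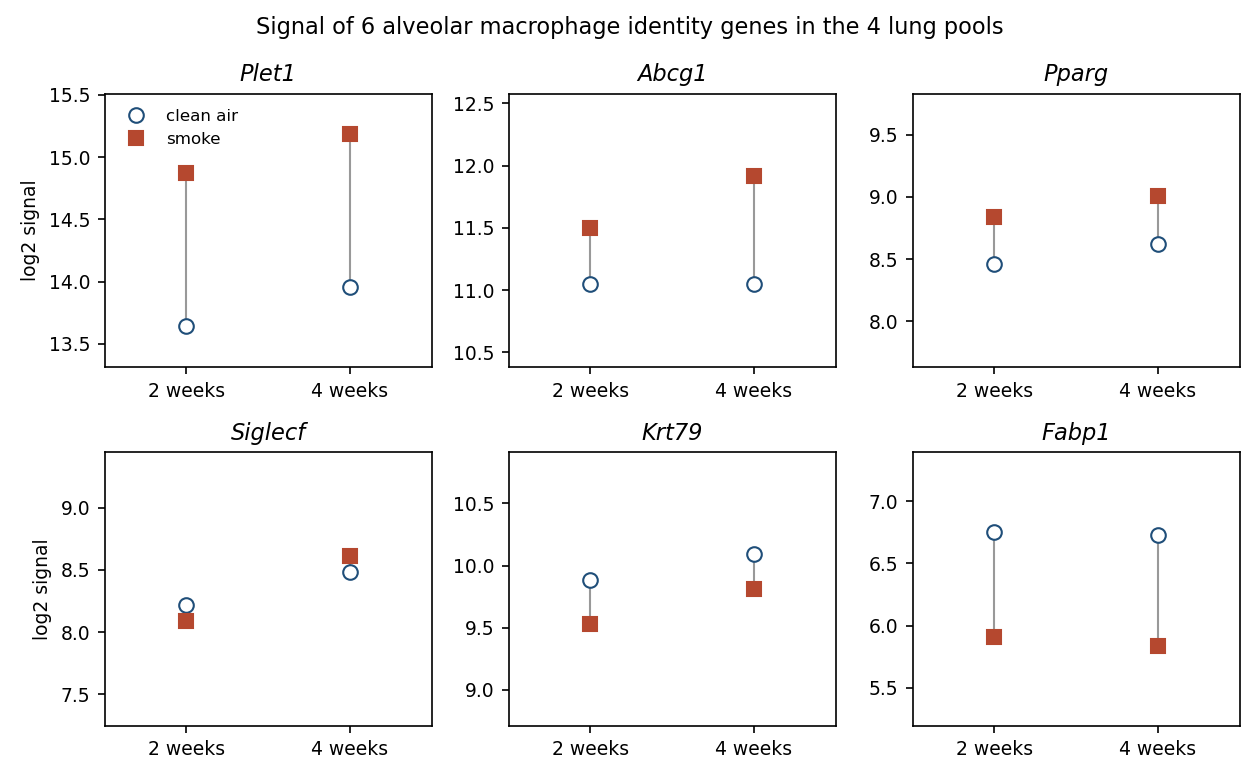
log2 signal of the 6 measured identity genes in the 4 lung pools, with open circles for clean air and filled squares for smoke, 1 pool each; every panel spans the same log2 range around its own centre. The smoke squares lie above the control circles for Plet1, Abcg1 and Pparg, below them for Krt79 and Fabp1, and on either side for Siglecf.

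Plet1 had signals of 12771 in clean air and 30059 in smoke at 2 weeks, and of 15862 and 37215 at 4 weeks. Both smoke pools were far above both control pools. The difference was 2.35-fold at each duration, or 1.23 on the log2 scale at 2 weeks and 1.23 at 4 weeks, and so changed by less than 0.01 between them (-0.0047). Of the 17 general macrophage genes, 3 had a larger difference at 2 weeks and 4 at 4 weeks. Of the 2 clean air pools, the older one was 1.24-fold higher. Set against the control pool of the other age, it was 0.92 higher at 2 weeks and 1.54 higher at 4 weeks on the log2 scale.

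Abcg1 gave 2119 and 2113 in the control pools, and 2901 and 3862 with smoke at 2 and 4 weeks. Its control values were nearly equal, and the smoke pools were 1.37-fold higher at 2 weeks and 1.83-fold at 4 weeks. Of the 6 members it had the largest change of the smoke difference between durations, 0.42 on the log2 scale, and it alone passed 1.5-fold at 4 weeks without doing so at 2 weeks. At each duration its difference lay close to the median of the general macrophage genes, at -0.11 from it at 2 weeks and -0.02 at 4 weeks.

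Pparg had signals of 351 and 393 in the control pools at 2 and 4 weeks, and of 458 and 514 in the smoke pools. The smoke pools did not overlap the controls. Its difference was 1.30-fold at 2 weeks and 1.31-fold at 4 weeks, below the 1.5-fold limit, with 12 and 13 of the 17 general macrophage genes further up. Against the control of the other age it was 0.22 higher at 2 weeks and 0.55 higher at 4 weeks on the log2 scale, so the near-equal differences rested on which control was used. Pparg is also a gene of fat cells. Summed over 8 measured fat cell markers, the signal was 2264 in clean air and 3460 in smoke at 2 weeks, and 4549 and 2635 at 4 weeks. The larger part of this sum in every pool was Car3, a carbonic anhydrase gene picked out with its values known, with a signal of 1257 in clean air and 2390 in smoke at 2 weeks, and of 3171 and 1581 at 4 weeks. Its smoke difference thus had opposite signs at the 2 durations. The part of fat cells in the Pparg difference was not tested. None of the 7 fat cell markers above the floor passed limma: the lipase gene Lipe was at -0.24 ± 0.150 (adjusted p = 0.658), Retn, the adipokine resistin, at -0.23 ± 0.197 (adjusted p = 0.772) and Adipoq, the adipokine adiponectin, at 0.17 ± 0.114 (adjusted p = 0.687). This fit averages both durations, so differences of opposite sign cancel in it. At 2 and 4 weeks Retn was at 0.20 and -0.66, Lipe at 0.04 and -0.52, and Adipoq at 0.31 and 0.04. At 1.5-fold, 1 of the 7 was higher at 2 weeks (1.82% of all genes). At 4 weeks 2 were lower (1.5%).

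Siglecf had signals of 298 in clean air and 272 in smoke at 2 weeks, and of 357 and 391 at 4 weeks. Smoke and control pools overlapped, and both 4-week pools were above both 2-week pools. The smoke differences were -0.13 and 0.13 on the log2 scale, while the control pools differed by 0.26. All 17 general macrophage genes had larger smoke differences at each duration. Set against the control of the other age, Siglecf was at -0.39 at 2 weeks and 0.39 at 4 weeks, below 1.5-fold in both cases. Because eosinophils also carry Siglec-F, their markers were read beside it: the granule protein genes Prg2, Prg3 and Epx, the receptor genes Ccr3 and Il5ra, and Alox15 had signals of 17.2 to 55.5 in every pool, below the floor. Summed over all 10 measured genes of that list, the signal lay between 55317 and 65798, nearly all of it Cd24a, a surface protein shared with other cells. None of the 3 genes of the list above the floor passed limma: the ribonuclease gene Ear6 was at 0.96 ± 0.173 (adjusted p = 0.0632), Adgre4 at -0.15 ± 0.123 and Cd24a at 0.04 ± 0.107.

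Krt79 gave 947 and 1091 in the control pools and 741 and 897 in the smoke pools at 2 and 4 weeks. Each smoke pool was below both control pools, by 1.28-fold at 2 weeks and 1.22-fold at 4 weeks against its own control, which is short of 1.5-fold. The control pools themselves differed by 1.15-fold, the older one being higher. Against the control of the other age the log2 difference was -0.56 at 2 weeks and -0.08 at 4 weeks, so its size rested on which control was used.

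Fabp1 had signals of 108 and 106 in the control pools and of 60.0 and 57.1 in the smoke pools at 2 and 4 weeks. The control values were nearly equal and the smoke values lay well below them. Fabp1 was 1.80-fold lower at 2 weeks and 1.86-fold lower at 4 weeks. Both smoke values were close to the floor of 56.3, and Fabp1 is no longer kept with a floor at the 50th percentile. Liver and gut markers, read because these tissues are the main sites of Fabp1, summed to between 222 and 253 over 7 genes, and 6 of the 7 were below the floor; Alb, the albumin gene, was at -0.28 and -0.25. What part such tissue had in the Fabp1 difference was not tested.

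**Figure D2:**
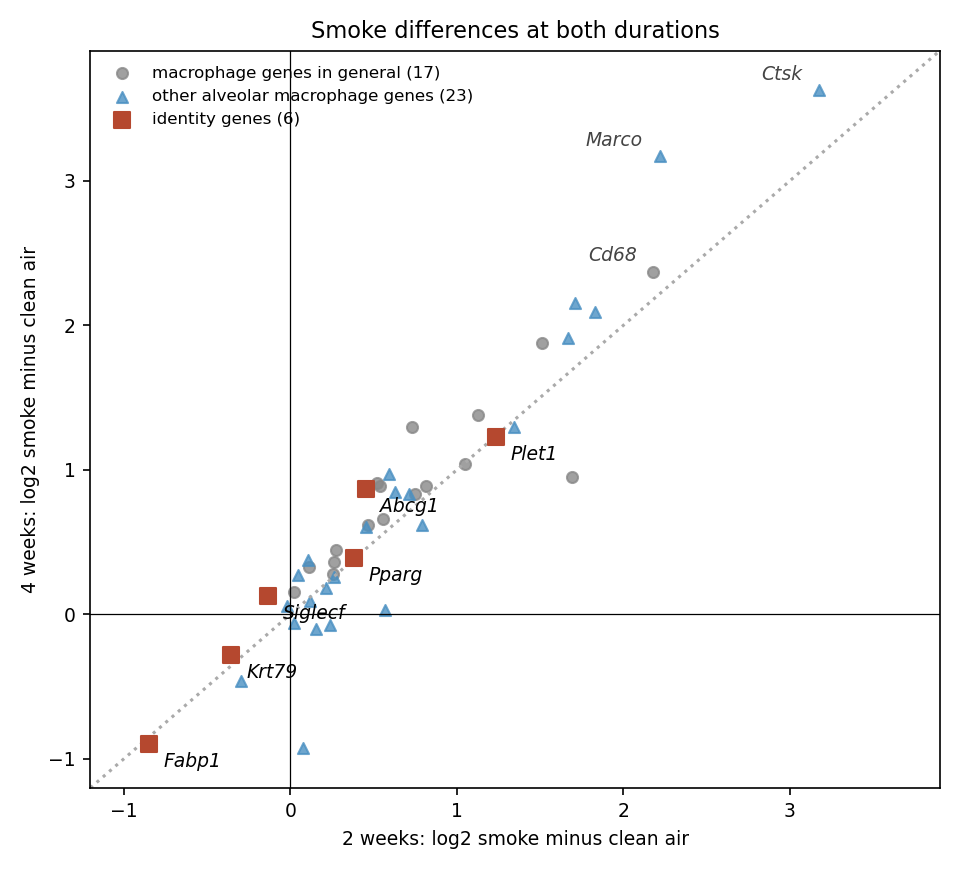
log2 smoke minus clean air at 2 weeks (horizontal axis) and 4 weeks (vertical axis), 1 pool per group, for 6 identity genes (red squares), 17 macrophage genes in general (grey circles) and 23 other alveolar macrophage genes (blue triangles); the dotted line marks equal differences. The 17 general genes all lie above 0 on both axes, whereas Fabp1 and Krt79 lie below 0 on both and Siglecf lies near 0. Some of the other alveolar macrophage genes also lie near 0, and Hpgd lies below 0 on both axes.

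The size of the change of the smoke difference from 2 to 4 weeks had a median of 0.06 over the 6 members, with 0.42 in Abcg1 and 0.26 in Siglecf, and of 0.15 over all genes, while the control pools differed by a median size of 0.18 in the members and 0.14 in all genes. No member differed 1.5-fold between the control pools, where 4.09% of all genes did. Of the 12583 protein-coding genes above the floor, the kind the members belong to, 248 were higher and 19 lower in the 4-week control. Ordered by the mean difference of both durations, the members ran Plet1 (1.23), Abcg1 (0.66), Pparg (0.38), Siglecf (0.00), Krt79 (-0.32) and Fabp1 (-0.87). In this order Siglecf differed from 0 by less than the control pools differed, and Abcg1 and Pparg stood 0.07 apart at 2 weeks and 0.48 apart at 4 weeks. Pparg was above Siglecf by 0.52 and 0.26, Siglecf above Krt79 by 0.22 and 0.41, and Krt79 above Fabp1 by 0.50 and 0.61. No replicate spread exists to set these gaps against.

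**Figure D3:**
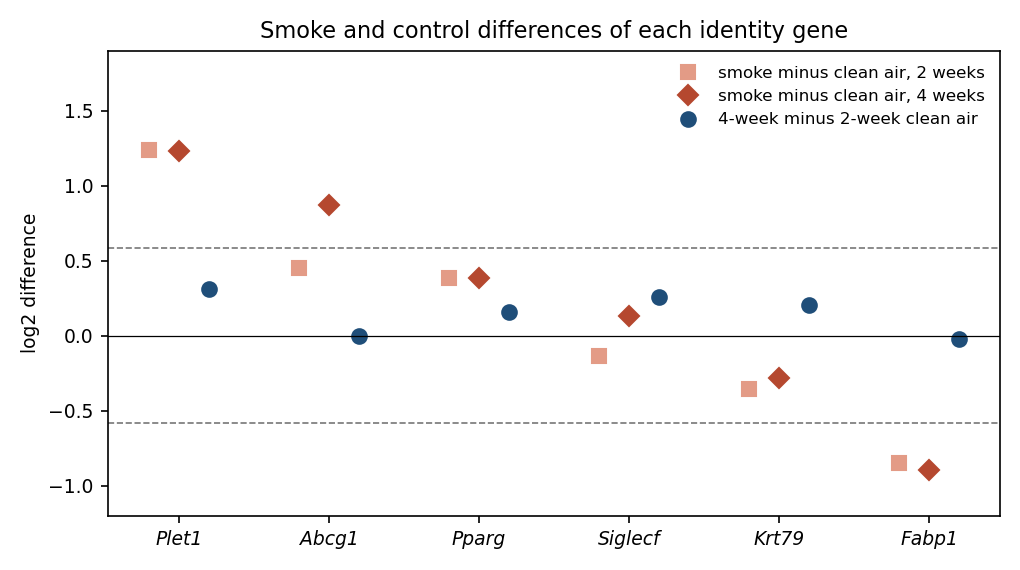
log2 differences of each identity gene: smoke minus clean air at 2 weeks (light squares) and 4 weeks (dark diamonds), and the 4-week minus the 2-week clean air pool (blue circles); dashed lines mark 1.5-fold. Plet1 and Fabp1 lie outside the dashed lines for smoke at both durations, Abcg1 at 4 weeks, and no circle lies outside them.

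The wider alveolar macrophage signature was read beside the members. Of 25 such genes that are not members, 23 were measured and above the floor; 10 rose, none fell and 13 did not pass limma (medians of 0.45 at 2 weeks and 0.38 at 4 weeks). The collagen-degrading protease Ctsk rose by 3.40 ± 0.135 (adjusted p = 0.000856), the scavenger receptor Marco by 2.70 ± 0.214 (adjusted p = 0.00466) and the proton pump subunit gene Atp6v0d2 by 1.96 ± 0.113 (adjusted p = 0.00184). After cyclic loess 6 of the 10 calls held, those of Ctsk, Marco and Atp6v0d2 among them, and 1 gene of the list passed after median centring. With limma run on protein-coding genes alone 11 of the list rose and 1 fell. Several genes of this list, such as Car4, Epcam and Krt19, are also expressed by endothelial or epithelial cells of the lung. Of the 23, 6 had a larger difference than Plet1 at 2 weeks and 6 at 4 weeks, while 23 and 22 had a larger one than Fabp1. For Krt79 these counts were 23 and 21, and for Siglecf 22 and 15. Lack of a rise was thus not particular to the members among the genes listed: Hpgd was at -0.29 and -0.46, and Cidec at 0.08 and -0.925. The clean air pools differed 1.73-fold in Cidec, which was higher at 4 weeks. Which cells of the lung gave the Hpgd and Cidec signals was not tested. Genes of activated and lipid-laden macrophages had the highest medians of the lists read here: 11 of 12 rose and none fell, with medians of 1.40 and 1.89. Mmp12, the macrophage elastase, rose by 4.00 ± 0.288, the glycoprotein gene Gpnmb by 3.28 ± 0.201 and the myeloid lectin receptor Clec5a by 2.33 ± 0.102; 7 of these 11 calls held after cyclic loess, those of Mmp12, Gpnmb and Clec5a among them, and 1 gene of the list passed after median centring.

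The factors that build alveolar macrophages were then read, of which 18 of 22 were measured and above the floor; 4 rose, 1 fell and 13 did not pass. Csf2, the gene of GM-CSF, had signals of 71.4 and 77.8 in the control pools and of 216 and 240 in the smoke pools, 3.02-fold and 3.08-fold higher. With limma it rose by 1.61 ± 0.101 (adjusted p = 0.00222), and Csf2ra, a chain of its receptor, by 1.24 ± 0.119 (adjusted p = 0.00854). Bhlhe41, a transcription factor of alveolar macrophage identity and self-renewal and also a clock repressor, rose by 1.05 ± 0.114 (adjusted p = 0.0140), and Csf1, the macrophage growth factor, by 0.77 ± 0.103 (adjusted p = 0.0270). The factor Klf4 fell by 0.89 ± 0.104 (adjusted p = 0.0181). After cyclic loess the calls of Csf2 (adjusted p = 0.0240) and Csf2ra (adjusted p = 0.0442) held and the other 3 were lost, and after median centring none of the 4 rising calls remained. With limma run on protein-coding genes alone 7 of the list rose and 1 fell. The control pools differed 1.80-fold in Csf2ra, which was higher at 4 weeks.

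Partners and lipid genes of PPAR gamma and of the sterol receptor LXR gave medians of -0.03 at 2 weeks and -0.06 at 4 weeks over 17 genes above the floor of 21 listed. None rose, 1 fell and 16 did not pass; with limma run on protein-coding genes alone 2 rose and 3 fell, and 1 rose and 1 fell with a floor at the 50th percentile or with a variance trend in eBayes. Pdk4, a kinase that spares glucose in fasting, fell by 1.00 ± 0.114 (adjusted p = 0.0172), a call lost after cyclic loess (adjusted p = 0.0652); it also differed 1.62-fold between the clean air pools, with the higher signal at 4 weeks. The lysosomal lipase gene Lipa was at 0.69 ± 0.116 (adjusted p = 0.0520) and the coactivator gene Ppargc1a at -0.48 ± 0.120 (adjusted p = 0.171). Abca1, which like Abcg1 encodes a cholesterol exporter, had differences of -0.38 and -0.16, and was picked out with its values known. Which cells of the lung gave the signals of this list was not tested, so its medians are not those of macrophages alone.

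Relatives of the members by gene family were compared in the same way. Of 6 Siglec genes above the floor besides Siglecf, Cd33 rose by 0.96 ± 0.102 (adjusted p = 0.0125) and Siglec1, a macrophage adhesion receptor, by 0.73 ± 0.109 (adjusted p = 0.0349, or 0.0894 after cyclic loess), and 4 did not pass, among them the B cell receptor gene Cd22 at 0.27 ± 0.102 (adjusted p = 0.365). Among 4 fatty acid binding protein genes above the floor besides Fabp1, Fabp5 rose by 0.77 ± 0.103 (adjusted p = 0.0267, or 0.0722 after cyclic loess), while Fabp4 was at 0.57 and 0.03 and Fabp3, the heart form, at -0.36 and -0.16. Of 7 keratin genes above the floor besides Krt79 none passed; Krt80 was at -0.16 ± 0.112, Krt8 at -0.14 ± 0.107 and Krt7 at -0.10 ± 0.101. Of a list of 15 ribonuclease genes read beside the missing Ear1 and Ear2, 7 were measured, 4 were above the floor and none of these passed. Ear6 had signals of 178 and 164 in the control pools and of 271 and 408 in the smoke pools at 2 and 4 weeks, 1.53-fold and 2.49-fold higher. Rnase6 was at -0.22 and 0.37, and the angiogenin gene Ang2 at -0.17 and -0.10. Near-identical copies in this family can share probes, so values of single Ear genes are uncertain.

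**Figure D4:**
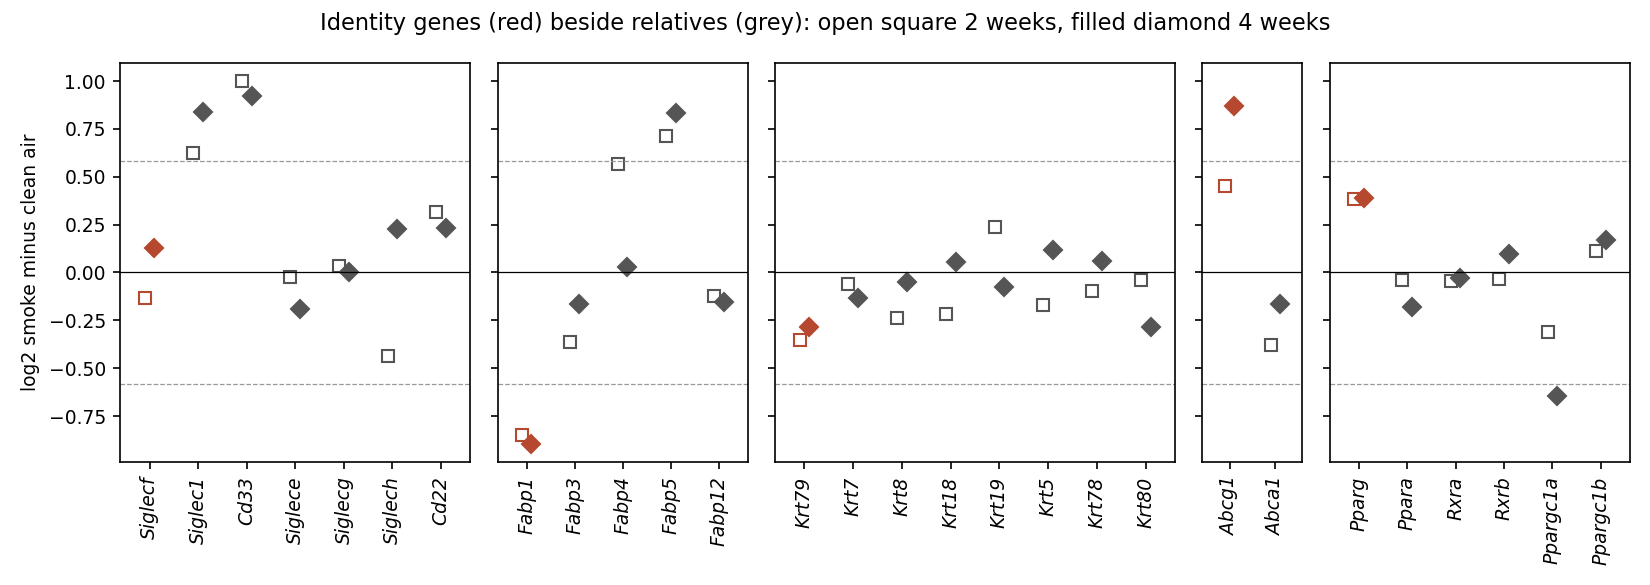
log2 smoke minus clean air at 2 weeks (open squares) and 4 weeks (filled diamonds), 1 pool per group, for 5 identity genes (red) and relatives above the floor (grey); dashed lines mark 1.5-fold. Fabp1 lies below the lower line where Fabp5 lies above the upper one, and Siglecf lies near 0 where Cd33 and Siglec1 lie above the upper line.

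Markers of other cells that macrophage RNA could be read through are given beside the members. Of 14 monocyte and interstitial macrophage markers 4 rose, none fell and 10 did not pass, with medians of 0.30 and 0.32: Ms4a7, a membrane protein of interstitial macrophages, rose by 1.36 ± 0.149, and the complement genes C1qb by 1.21 ± 0.112, C1qc by 1.06 ± 0.153 and C1qa by 0.73 ± 0.101, of which only C1qb passed after cyclic loess and none after median centring. The clean air pools differed 1.77-fold in C1qb and 1.60-fold in C1qa, both higher at 4 weeks. Of 10 alveolar type 2 cell markers 1 rose, the surfactant protein gene Sftpd by 1.03 ± 0.144, which no longer passed after cyclic loess, and 9 did not pass, among them Lamp3 at 0.26 ± 0.104 and the phosphate transporter gene Slc34a2 at 0.13 ± 0.101. The part of these cells in the members' differences was not tested.

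Genes with a pattern most like a member's were sought among 12582 other protein-coding genes, by the distance between log2 values centred over the 4 arrays, for the 3 members that differed 1.5-fold in any comparison. Nearest to Plet1 were the chemokine gene Cxcl9 (distance 0.10, 2.25-fold and 2.56-fold higher with smoke at 2 and 4 weeks), the lectin-like receptor gene Klrb1b (0.17) and Ms4a14 (0.18). Nearest to Abcg1 were the pattern receptor gene Tlr2 (0.04, 1.33-fold and 1.88-fold), the neutrophil chemokine gene Cxcl2 (0.04) and Rrm2 (0.08), a subunit of ribonucleotide reductase. Nearest to Fabp1 were Vsig2 (0.11, 1.63-fold and 1.82-fold lower), the kinase gene Sik1 (0.12) and Npr3 (0.13), the clearance receptor of natriuretic peptides. With 4 arrays such a likeness rests on few values, and nothing is inferred from it.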

How the data were processed

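Whole-lung RNA of 4 pools of mice was measured on 1 array each. Per the labels' protocols, extraction used the RNeasy Mini Kit and labelling the GeneChip WT PLUS kit. The deposited intensities are linear; according to the submitters' processing notes the authors used RMA and Affymetrix Expression Console 1.4.1. Neither the genome build nor the base of the linear scale is stated there. With base e, tried after the data were seen, log2 differences would be 0.69 times those given.

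The array annotation gave 1 symbol for 30604 of 65956 features, several for 2146 and no entry for 33206. Entrez IDs led to current symbols in RefSeq (assembly GRCm38.p6) for 22818 features, and genes above the 40th percentile of mean log2 signal were kept. Differences are log2 smoke minus control, called at 1.5-fold. limma 3.58.1 in R 4.3.3 (lmFit, eBayes) fitted smoke and duration to all 4 pools, adjusted by Benjamini-Hochberg. The fit had 1 residual degree of freedom and 5.38 prior degrees of freedom. Its p-values set the mean smoke difference of both durations against an estimated spread. That spread came from the gene's own change between durations and, for the larger part, from all genes tested. It holds no spread between replicate pools. No p-values were given for the members. On simulated data of this design the share of false calls exceeded the adjusted p limit in every run. The adjusted p-values may thus be too small, and the reason for the excess was not tested. In the text, genes rose or fell only where they passed this fit.

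The members and lists were chosen with earlier results of these data known. Named genes are all members, the 3 genes of each list with the largest mean smoke difference, genes that a count of 5 or fewer turns on, and the 3 nearest patterns. Alternatives were other scalings (median centring, cyclic loess), floors, gene sets, controls, call sizes and models, and each pool left out.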

Additional observations from a re-analysis of the deposited data

Results flagged for a closer look

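Siglecf differed in the sign of its smoke difference between durations: log2 smoke minus control was -0.13 at 2 weeks and 0.13 at 4 weeks, with 1 pool per group. The difference between durations, 0.26, was not tested, and the control pools differed by as much (0.26).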

How the results depend on the processing

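Over 129 values of the 6 members under the alternatives planned, 0 of those past 1.5-fold changed sign, 119 moved by less than 1 SD of a difference between pools as limma estimated it, and 10 moved by more, all of them with the control pool of the other age or the mean of both controls. No member had over 1 feature, so averaging features changed none of their values. The other floors and gene sets also left the value of every member they kept unchanged by construction. Only the other scalings and controls could move a value, so the 119 is not a measure of robustness. Median centring and cyclic loess shifted member values by at most 0.10.

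The members' counts moved under these settings. With a floor at the 50th percentile, 0 members were lower at 2 weeks, at 4 weeks or at both, since Fabp1 is then left out. With a 2-fold call, 0 members were lower at 2 weeks, 4 weeks or both, and 1 was higher at 4 weeks. Counts over all genes with a 2-fold call were 94 higher and 42 lower at 2 weeks, 114 and 44 at 4 weeks, 67 and 13 at both, and 51 and 88 between controls. Among protein-coding genes alone, 71 were lower at 2 weeks, 293 were higher at 4 weeks, and 19 were lower in the 4-week control. With a linear scale of base e, an alternative chosen after seeing the data, 133 genes were higher and 77 lower at 2 weeks, 177 and 91 at 4 weeks, 93 and 21 at both, and 107 and 126 between controls, and no count of the members changed. Against the 2-week control, 830 genes were higher and 567 lower in the 4-week smoke pool. Between the control pools, 45.1% of calls were higher, 34.0% after median centring and 61.6% after cyclic loess.

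The limma counts were 208 rising and 57 falling. They became 8 and 0 after median centring, 64 and 8 after cyclic loess, 565 and 319 with protein-coding genes alone, and 0 and 0 if duration was not modelled (1163 genes at an unadjusted p under 0.05). With the higher floor, 90 fell. Leaving out 1 pool gave 0 to 25 rising and 0 to 9 falling genes, with 597 to 1469 genes at an unadjusted p under 0.05; 0 passed without the 2-week or without the 4-week smoke pool, 4 rose and 2 fell without the 2-week control, and 25 rose and 9 fell without the 4-week control. These fits also lack the duration term, so they stand beside the 0 and 0 of all 4 pools without it, not beside 208 and 57, and the lone pool is assumed to vary like the others. Smoke and control pools are matched by duration through the duration term, and no replicate numbers exist beyond that. The cause of these shifts was not tested.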

Other observations

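Ribonuclease relatives of the Ear group, added after their values were seen, do not replace Ear1 and Ear2. The feature of the pseudogene Ear-ps2 had signals of 2167 in clean air and 1036 in smoke at 2 weeks, and of 1964 and 1771 at 4 weeks (-1.07, against -0.15 at 4 weeks; limma adjusted p = 0.319). Rnase2a, a ribonuclease gene of the same group, had 134 and 155 at 2 weeks and 183 and 251 at 4 weeks, with differences of 0.21 and 0.45 (adjusted p = 0.308). The other 5 genes of this set were below the floor.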
